A study of Mus musculus with 7 samples.

Results

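Magi1, Pdzrn3 and Dlg5 encode proteins with PDZ domains, and each carried more Srsf3 peaks without ligand than after PDGF-AA stimulation. They are 3 of the 5367 genes that had any peak, and they held 30 of 6396 untreated (-PDGF-AA) peaks and 11 of 8384 PDGF-AA (+PDGF-AA) peaks. The members were selected on the measured excess of untreated peaks itself, so that excess is given as a description with no test. Without ligand, 16 of the 30 peaks lay in coding sequence (CDS) and 14 in introns. After PDGF-AA, all 11 lay in CDS, in Magi1 and Pdzrn3, and Dlg5 had none.

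The peaks came from enhanced UV-crosslinking and immunoprecipitation (eCLIP), which recovers RNA that UV light has joined to a chosen protein. The cells were iMEPM, immortalized mesenchymal cells of the mouse embryonic palate that the study's methods trace to a male Cdkn2a-/- embryo, so all libraries share that deletion and 1 line. Serum-starved cells were given no ligand or were stimulated for 1 hour with PDGF-AA, which activates the receptor PDGFRα, at 10 ng/mL. Of 7 libraries, 2 were Srsf3 immunoprecipitations of untreated cells, 1 was an Srsf3 immunoprecipitation of stimulated cells, and 1 input and 1 IgG library came from each condition. The endogenous protein was precipitated, with no tagged transgene. The authors called peaks for each condition as a whole. By the samples given, the untreated list thus stands for 2 libraries and that of PDGF-AA for 1, titled replicate 2, although the study's methods describe duplicates. By the study's read numbers, the PDGF-AA library had about as many mapped reads as the 2 untreated libraries together. No count below has a replicate check. The lists give intervals with no score or read number. The depth behind a peak is therefore unknown, and a change in binding cannot be told apart from a change in the amount of transcript. The lists hold no expression values, so the labelled cell type could not be set against its markers. Input and IgG libraries have no list and were not analysed here.

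A PDZ domain is a small fold that binds the carboxy-terminal tail of a partner protein, and proteins that carry several of them hold receptors, adhesion molecules and signalling enzymes together beneath the membrane. Magi1 is a membrane-associated guanylate kinase homologue (MAGUK) with an inverted domain order, found at epithelial and endothelial junctions. Dlg5 is a MAGUK of the Discs large family with roles in cell polarity and adhesion. Pdzrn3 joins PDZ domains to a RING finger and is an E3 ubiquitin ligase, so it is a scaffold and an enzyme in 1 protein. Srsf3, the smallest of the classical serine/arginine-rich proteins, binds short pyrimidine-rich motifs and acts in splicing, mRNA export and 3' end formation.

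Of the 30 untreated peaks, 8 held an uninterrupted run of the dinucleotide CA of at least 12 nt (26.7%, Wilson 95% interval 14.2 to 44.4%). All 8 lay in introns, among 14 untreated intron peaks of the 3 genes. In the whole untreated list 44.9% of intron peaks held such a run. None of the 11 PDGF-AA peaks held such a run, which allows a share of up to 27.3%. In the whole untreated list 16.9% of peaks held one, and in the whole PDGF-AA list 99 of 8384 did. The clearest examples of each gene are shown because such runs recur in all 3 genes. Each is printed as the peak on GRCm39, on the minus strand that all 3 genes occupy, 5′ to 3′, with the longest CA run in capitals.
Magi1 intron 1, chr6:93992159-93992203: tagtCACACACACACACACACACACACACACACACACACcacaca
Magi1 intron 1, chr6:94114774-94114851: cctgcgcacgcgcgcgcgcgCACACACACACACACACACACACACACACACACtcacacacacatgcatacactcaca
Pdzrn3 intron 3, chr6:101218696-101218761: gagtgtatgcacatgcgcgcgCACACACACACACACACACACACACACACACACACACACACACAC
Pdzrn3 intron 3, chr6:101290045-101290101: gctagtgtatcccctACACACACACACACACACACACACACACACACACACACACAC
Dlg5 intron 2, chr14:24247611-24247666: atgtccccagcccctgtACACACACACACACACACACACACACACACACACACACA
Dlg5 intron 5, chr14:24238270-24238311: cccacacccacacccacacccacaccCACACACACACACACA
Inside these 6 peaks the run was 35, 33, 45, 42, 39 and 16 nt long. The last 3 of these runs reach past the peak edge, and as whole runs they are 43, 42 and 39 nt long. In the last of the 6 peaks the run follows tandem copies of CCCACA, and that repeat and the start of the CA run together span 31 nt. None of these 6 intervals met a PDGF-AA peak. The study's methods remove reads of repetitive elements before alignment, a step whose part in these peaks was not tested.

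The excess was of different size in each gene. Magi1 had 13 untreated and 5 PDGF-AA peaks, a difference of 8, and 1 other gene in the lists had a larger one. Pdzrn3 had 12 and 6, a difference of 6 that 4 genes exceeded. Dlg5 had 5 and 0, a difference of 5 that 7 genes exceeded, and its 5 rows are those it has in the deposited list of genes bound without ligand alone. Across all 5367 genes, 26.7% had more untreated peaks and 50.6% had more PDGF-AA peaks. Nothing is read from these shares about the 3 genes, since their direction chose them. Without the peaks that hold a CA run of 12 nt or more, the difference was 6 in Magi1, 2 in Pdzrn3 and 3 in Dlg5.

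**Figure D1:**
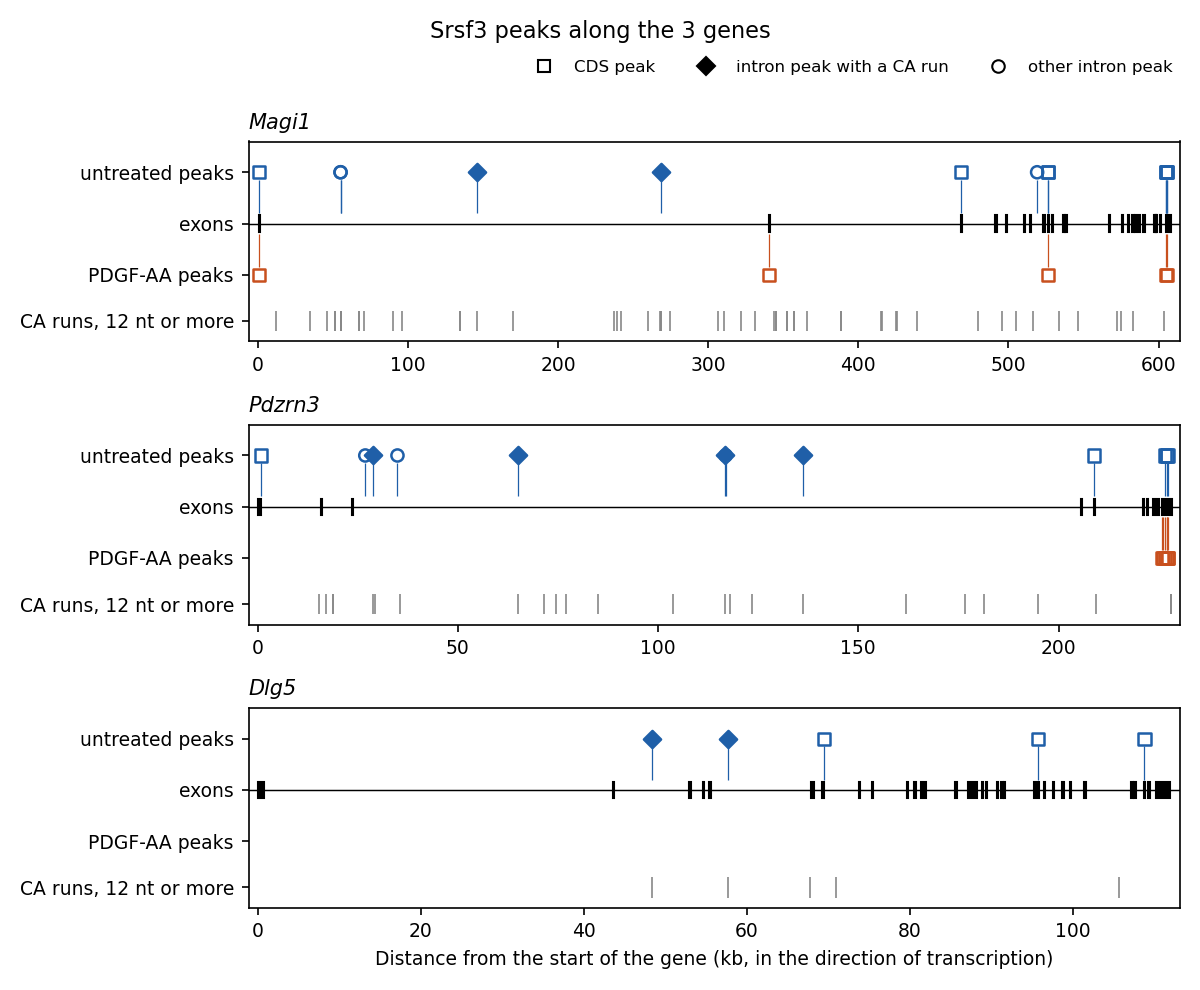
Srsf3 peaks along Magi1, Pdzrn3 and Dlg5, by distance from the start of the gene in kb in the direction of transcription. Blue symbols above the line are untreated peaks and orange symbols below it are PDGF-AA peaks; squares are CDS peaks, filled diamonds are intron peaks with a CA run of 12 nt or more, and circles are other intron peaks. Black bars are exons, drawn no narrower than a fixed minimum, and grey ticks are all CA runs of 12 nt or more on the gene strand. All 14 intron peaks stand above the line and the PDGF-AA row of Dlg5 is empty.

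The map of peaks along the genes shows where the conditions part. Introns held 14 of 30 untreated peaks (46.7%, Wilson 95% interval 30.2 to 63.9%) and 0 of 11 PDGF-AA peaks, which allows a share of up to 27.3%. These intervals cover counting error only. In the whole lists introns held 36.1% of untreated and 11.9% of PDGF-AA peaks that could be placed in a gene region by the rule used here. The study, with its own annotation, reported lower intron shares in both conditions. The genes were chosen for untreated peaks and many of these peaks share an intron, so the interval is no test against the whole list. By gene, introns held 5 of 13 untreated peaks in Magi1, 7 of 12 in Pdzrn3 and 2 of 5 in Dlg5. No peak of any of the genes lay mostly in a 5′ or 3′ untranslated region.

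Magi1 is a long gene. It spans 608 kb of chromosome 6 (chr6:93652434-94260898) with 24 exons in its longest coding transcript, and intron 1 alone covers 340.0 kb, or 55.8% of the gene. Intron 1 held 4 of the 5 untreated intron peaks, and the nearest splice site of that transcript to any of them was 54.2 kb away. The fifth lay in intron 7, 4.04 kb from the nearest splice site of that transcript. Splice sites of the other annotated transcripts were not measured and can lie nearer. The coding peaks fell in exons 1, 3, 9 and 24 without ligand and in exons 1, 2, 9 and 24 after PDGF-AA. Exon 3 was thus bound in the untreated list alone, by 1 peak of 21 nt, and exon 2 in the PDGF-AA list alone, by 1 peak of 45 nt.

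The other 3 intron peaks of Magi1 held no CA run of 12 nt. The peak in intron 7 is shown because its make-up was still repetitive, with the stretch of purines of at least 8 nt in capitals.
Magi1 intron 7, chr6:93741788-93741826: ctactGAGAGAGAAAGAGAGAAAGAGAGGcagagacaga
It held a purine stretch of 24 nt made mostly of GA. When 1 mismatch per 12 nt was allowed, 4 of the 5 intron peaks of Magi1 counted as CA repeats, against 2 without that allowance.

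In 2 of the 3 Magi1 exons bound in both lists, exons 9 and 24, the same stretches were cut into more pieces without ligand. Exon 24, the last exon, had 4 untreated peaks covering 99 nt and 2 PDGF-AA peaks covering 191 nt, and each PDGF-AA peak contained 2 untreated peaks. Exon 9 had 2 untreated peaks of 17 and 18 nt, separated by 1 nt, both of which met a single PDGF-AA peak of 46 nt. The 3 PDGF-AA peaks are printed with the nucleotides that also lie under an untreated peak in capitals.
Magi1 exon 9, chr6:93734661-93734706: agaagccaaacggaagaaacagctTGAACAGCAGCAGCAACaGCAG
Magi1 exon 24, chr6:93655755-93655856: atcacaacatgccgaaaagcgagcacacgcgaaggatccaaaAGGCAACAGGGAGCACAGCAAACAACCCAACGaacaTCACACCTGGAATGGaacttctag
Magi1 exon 24, chr6:93655529-93655617: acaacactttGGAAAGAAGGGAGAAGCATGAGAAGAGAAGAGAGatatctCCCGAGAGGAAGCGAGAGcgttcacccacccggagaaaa
The last of these holds the purine-rich hexamer AGAAGA under the peaks of both lists, and the exon 9 peak reads through repeated CAG triplets. Of the 5 PDGF-AA peaks of Magi1, 3 met 2 untreated peaks each. In the whole PDGF-AA list 129 of 8384 peaks did so (1.54%), or 5.2% of those that met any. When peaks within 50 nt in a list were merged, Magi1 had 9 untreated and 5 PDGF-AA sites, so its difference fell from 8 to 4. The number of libraries differs between the lists, and its part in how peaks were split was not tested.

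**Figure D2:**
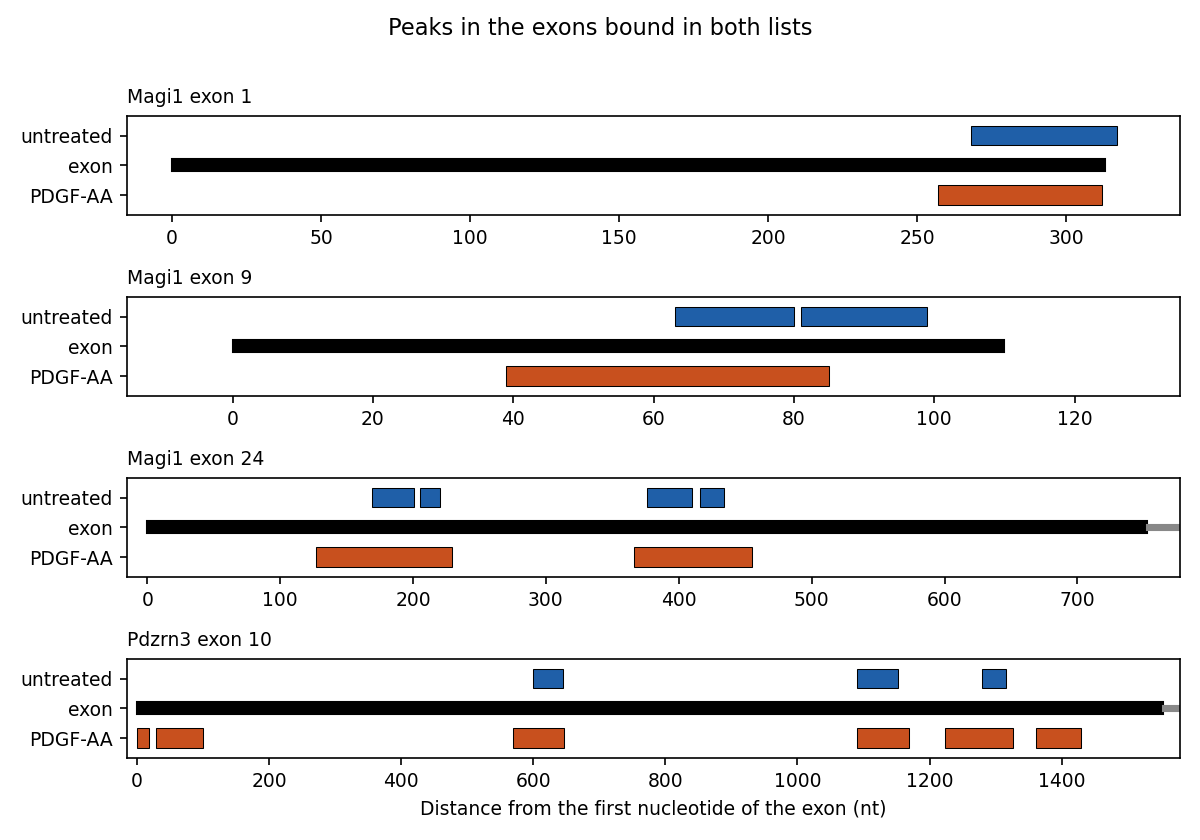
Peaks in the 4 exons that held peaks of both lists, by distance in nt from the first nucleotide of the exon. Blue boxes are untreated and orange boxes PDGF-AA peaks, black bars are coding sequence and grey lines the start of untranslated sequence. In exons 9 and 24 of Magi1, single orange boxes face pairs of blue boxes, and in exon 10 of Pdzrn3, 6 orange boxes face 3 blue ones.

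Magi1 exon 1 was bound at its end in both lists, with 44 nt in common. The untreated peak ran 4 nt past the exon into intron 1, shown in capitals, and so crossed the 5′ splice site in the interval as deposited.
Magi1 exon 1, untreated, chr6:94259987-94260035: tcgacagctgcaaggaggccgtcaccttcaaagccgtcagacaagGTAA
In all, 7 of 13 untreated Magi1 peaks met a PDGF-AA peak, and all 7 were in CDS. In the other direction 4 of 5 PDGF-AA peaks met an untreated peak. In the whole lists 38.8% of untreated and 29.6% of PDGF-AA peaks met a peak of the other list. The genes were chosen for untreated peaks, so nothing about them is read from these shares. Joined on overlap, the peaks of Magi1 made 4 sites found in both lists, 6 found without ligand alone (1 in CDS and 5 in introns) and 1 found after PDGF-AA alone.

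Dlg5 is the other MAGUK of the set, and it had no peak in the PDGF-AA list. It spans 112 kb of chromosome 14 (chr14:24184021-24295993) with 32 exons. Its 5 untreated peaks lay in introns 2 and 5 and in exons 7, 22 and 30. Both intron peaks held a CA run, printed above, and stood 4.59 and 2.08 kb from the nearest splice site of the longest coding transcript. The coding peaks were 37, 19 and 57 nt wide and are shown because they have no PDGF-AA counterpart. Capitals in exon 30 mark the nucleotides that lie in the following intron.
Dlg5 exon 7, chr14:24226467-24226503: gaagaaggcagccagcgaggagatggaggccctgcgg
Dlg5 exon 22, chr14:24200219-24200237: tccaccagctcaacagcca
Dlg5 exon 30, chr14:24187174-24187230: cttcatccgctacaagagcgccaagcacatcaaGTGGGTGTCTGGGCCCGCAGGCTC
The exon 7 peak opens with GAAGAAG and the exon 22 peak is rich in C and A without a purine hexamer. The exon 30 peak covered 33 nt of the exon and 24 nt of the intron after it, across the 5′ splice site. It was 1 of 2 untreated peaks of the 3 genes that reached into the intron after their exon, beside that of Magi1 exon 1. An interval absent from a list without read numbers does not show that the site was free, only that no peak was called there.

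Pdzrn3, the ubiquitin ligase, had most of its untreated peaks in 1 intron and all of its PDGF-AA peaks in 1 exon. It spans 228 kb of chromosome 6 (chr6:101126570-101354969) in 10 exons, and intron 3 makes up 79.7% of it. All 7 untreated intron peaks lay in intron 3, from 3239 nt after its start to 69288 nt before its end. This is an intron of the longest coding transcript, and another annotated transcript has 5′ untranslated sequence within it. Of these, 4 held a CA run of 12 nt or more, with 33, 42, 32 and 45 nt inside the peak.

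The other 3 intron peaks of Pdzrn3 held no CA run but each was made largely of purines or pyrimidines. Purine stretches of at least 8 nt are in capitals, and the last pair of lines gives adjoining peaks that lie 1 nt apart.
Pdzrn3 intron 3, chr6:101328087-101328116: cttctccccttccctccctccccttcctcc
Pdzrn3 intron 3, chr6:101320035-101320095: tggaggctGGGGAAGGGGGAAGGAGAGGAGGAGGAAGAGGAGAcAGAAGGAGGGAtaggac
Pdzrn3 intron 3, chr6:101238150-101238210: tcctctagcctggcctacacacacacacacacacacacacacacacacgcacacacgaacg
Pdzrn3 intron 3, chr6:101238066-101238148: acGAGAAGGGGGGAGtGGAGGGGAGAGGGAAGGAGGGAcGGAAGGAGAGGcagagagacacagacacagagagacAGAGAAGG
The first peak had no purine at all in its 30 nt. The others without a CA run held purine stretches of 35 and 22 nt, and the last adjoined the peak with a CA run of 32 nt. Among all untreated intron peaks without a CA run of 12 nt, 422 of 1255 (33.6%) had a purine stretch of 10 nt or more. In Magi1 and Pdzrn3 together 3 of 6 such peaks did.

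After PDGF-AA the coding peaks of Pdzrn3 were all in its last exon. Exon 10 holds 1554 of the 3189 coding nucleotides (48.7%), and all 6 PDGF-AA peaks lay in its coding part, covering 419 nt. Without ligand the same exon had 3 peaks covering 145 nt, and the other 2 coding peaks lay in exons 1 and 5. All 3 untreated peaks of exon 10 lay wholly inside PDGF-AA peaks, of which 1 shared its upstream edge with the untreated peak. That peak is printed with the shared nucleotides in capitals, followed by the 2 PDGF-AA peaks at the start of the exon, which no untreated peak met.
Pdzrn3 exon 10, both lists, chr6:101127861-101127939: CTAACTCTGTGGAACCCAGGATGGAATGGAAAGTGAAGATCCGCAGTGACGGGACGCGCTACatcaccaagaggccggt
Pdzrn3 exon 10, PDGF-AA, chr6:101129012-101129030: gaagaagcatgaggaagac
Pdzrn3 exon 10, PDGF-AA, chr6:101128930-101129000: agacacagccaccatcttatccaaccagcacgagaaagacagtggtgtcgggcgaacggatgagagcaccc
The short peak sits at the start of the exon and opens with GAAGAAG. The exon 1 peak, found without ligand alone, had a GC content of 85.7%, while the exon 5 peak had 56.2%.
Pdzrn3 exon 1, untreated, chr6:101354130-101354164: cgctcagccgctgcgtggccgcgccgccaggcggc
Pdzrn3 exon 5, untreated, chr6:101146096-101146127: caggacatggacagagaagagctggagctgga
Of its peaks, 3 of 12 untreated and 3 of 6 PDGF-AA met a peak of the other list. In the whole lists the shares were 38.8% and 29.6%. Joined on overlap, the peaks of Pdzrn3 made 3 sites found in both lists, 9 without ligand alone (2 in CDS and 7 in intron 3) and 3 after PDGF-AA alone.

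**Figure D3:**
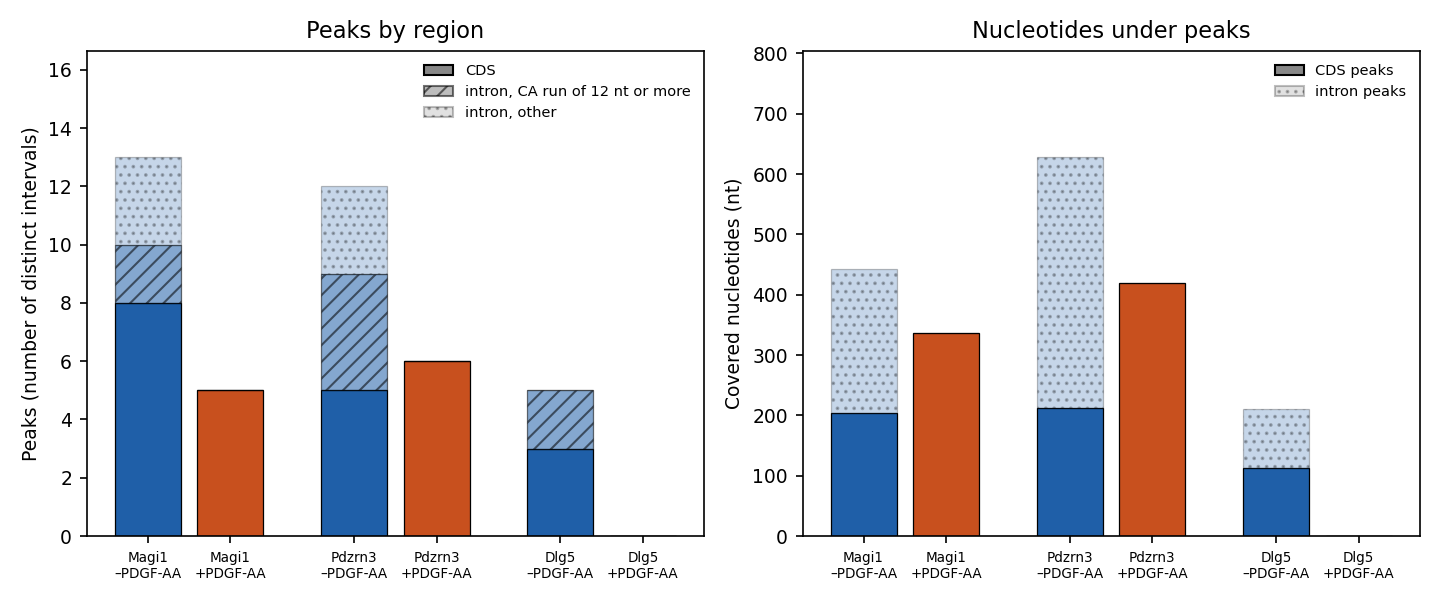
Distinct peaks (left, number) and nucleotides covered by peaks (right, nt) in each gene, with untreated bars in blue and PDGF-AA bars in orange. Solid parts are CDS peaks, hatched parts intron peaks with a CA run of 12 nt or more and dotted parts other intron peaks (left) or all intron peaks (right). Magi1 and Pdzrn3 have more untreated peaks, 13 against 5 and 12 against 6. Their CDS peaks cover more nucleotides after PDGF-AA, 337 against 204 nt and 419 against 212 nt, counted over whole peaks.

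Counted in nucleotides rather than peaks, the coding peaks of Magi1 and Pdzrn3 ran the other way. In Magi1 the coding peaks covered 204 nt without ligand and 337 nt after PDGF-AA. In Pdzrn3 the values were 212 and 419 nt. In Dlg5 they were 113 and 0 nt. These are widths of whole peaks, so 24 nt in Dlg5 and 4 nt in untreated Magi1 lie in introns. The PDGF-AA values of Magi1 and Pdzrn3 each include 1 nt outside the exon. The coding peaks were narrower without ligand, with a median width of 19.5 against 55.0 nt in Magi1 and 37.0 against 74.0 nt in Pdzrn3, whereas the medians of all coding peaks were 45.0 and 48.0 nt. More nucleotides under coding peaks with fewer peaks in all was common in the lists. Of 465 genes bound in both lists with more untreated peaks and a coding peak, 273 (58.7%) had more nucleotides under coding peaks after PDGF-AA. Intron peaks added 239 nt in Magi1, 416 nt in Pdzrn3 and 98 nt in Dlg5 without ligand and none after PDGF-AA.

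Only coding peaks of the 3 genes were shared between the lists. Of the 16 untreated coding peaks, 10 met a PDGF-AA peak, and of the 14 untreated intron peaks none did. In the whole untreated list 57.5% of coding and 14.6% of intron peaks met one. The genes were chosen for more untreated than PDGF-AA peaks, so a lack of PDGF-AA partners is in part built in. Some of the 14 intron peaks also adjoin each other. No trait of the 3 genes is therefore read from none of 14. Over the 3 genes there were 31 sites, 7 in both lists, 20 without ligand alone and 4 after PDGF-AA alone. The 4 sites found after PDGF-AA alone were all in CDS, with 1 in Magi1 exon 2 and 3 in Pdzrn3 exon 10.

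Tandem CA runs were then located in the whole genes, without use of the peaks. On the gene strand there were 55 runs of 12 nt or more in Magi1, 24 in Pdzrn3 and 5 in Dlg5, or 9.04, 10.5 and 4.47 per 100 kb. The median bound gene had 5.18 per 100 kb. Untreated peaks touched 4 of the runs in Magi1 (7.27%), 4 in Pdzrn3 (16.7%) and 2 of the 5 in Dlg5, together 10 of 84 (11.9%), and PDGF-AA peaks touched none. Over all bound genes untreated peaks touched 1846 of 35249 runs (5.24%) and PDGF-AA peaks 170 (0.482%). The genes were chosen for untreated peaks, so their higher share is in part built in and is given as a description.

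Peaks lay on CA and not on TG. The reverse complement, TG, occurred in 127 runs on the gene strand of the 3 genes, more than CA, and no peak of either list touched any of them. In all bound genes untreated peaks touched 69 of 47082 TG runs (0.147%). Long runs were found both with and without a peak. Lengths here are of whole runs, which can reach past the edge of a peak. Runs under a peak were 13 to 45 nt long with a median of 34.5 nt, and free runs were 12 to 57 nt long with a median of 25.0 nt. Of 37 runs of 30 nt or more, 8 lay under an untreated peak and 29 did not, among them the longest, of 57 nt, in Pdzrn3.

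**Figure D4:**
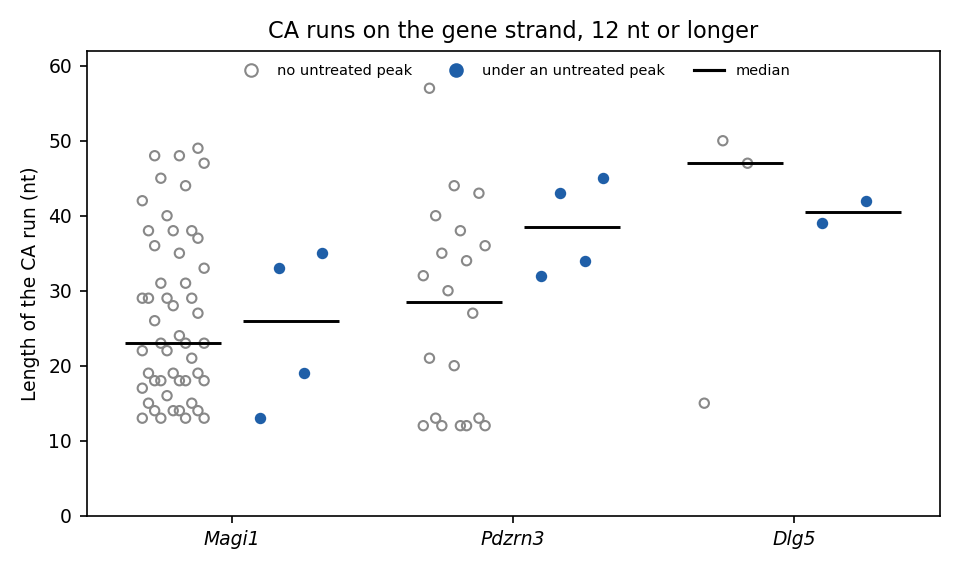
Length in nt of every CA run of 12 nt or more on the gene strand of Magi1, Pdzrn3 and Dlg5. Filled blue points are the 10 runs under an untreated peak, open grey points the 74 without one, and black lines medians. The ranges overlap in Magi1 and Pdzrn3, and in Dlg5 both runs under a peak lie within the range of the free runs.

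Intron and coding peaks differed in their hexamers, counted on the gene strand. CACACA was in 10 of the 14 untreated intron peaks of the 3 genes, against 50.2% of all untreated intron peaks, and in none of their 16 coding peaks, against 1.69%. It overlaps the CA runs by construction. The purine hexamer AGAAGA and its overlapping shifted forms, the hexamer GAAGAA and the hexamer AAGAAG, were counted together, and at least 1 was in 3 of 16 untreated coding peaks (24.6% of all untreated coding peaks) and 3 of 11 PDGF-AA coding peaks (32.9% of all). No intron peak of the 3 genes held one, against 10.8% of all untreated intron peaks. A match describes the letters under the peak and not a binding site.

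Gene length set Magi1 apart from most bound genes. Of bound genes, 1.05% were at least as long as Magi1, 6.79% as long as Pdzrn3 and 18.0% as long as Dlg5, and the median was 37.3 kb. The median GC content of bound exons was close to that of all exons of the gene, while single bound exons lay far from it. The median was 54.2% without ligand and 53.2% after PDGF-AA in Magi1 (52.4% over all its exons), 51.1% and 49.6% in Pdzrn3 (51.8%), and 57.5% without ligand in Dlg5 (56.8%). Few exons stand behind these medians, 4 and 4 in Magi1, 3 and 1 in Pdzrn3 and 3 in Dlg5. The bound exons of Magi1 included both its highest, exon 1 with 68.4%, and its lowest, exon 24 with 43.3%, and exon 1 of Pdzrn3, bound without ligand, was its highest with 73.0%. These values are of whole exons. In exon 24 of Magi1 only 752 of 3548 nt are coding, and its peaks lay in that part. No other gene on the same strand overlapped any of the 41 peaks. Annotated genes on the opposite strand lay over 1 peak of Magi1, 10 of Pdzrn3 and 2 of Dlg5, counted over both lists.

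Most PDZ genes with a peak did not have more untreated peaks. Of 125 listed mouse genes with a PDZ domain, 58 had a peak, with 137 untreated and 142 PDGF-AA peaks. More untreated peaks were found in 18 (31.0%), fewer in 25 (43.1%) and equal numbers in 15, with a median difference of 0. Without the 3 genes the counts were 15 (27.3%), 25 (45.5%) and 15 of 55. Across all genes the shares were 26.7% and 50.6%, with a median of -1. Outside the 3 genes the largest untreated excess was 2 peaks, reached by 5 genes. Those with the most covered nucleotides were Arhgap23 (9 against 7), Sipa1l3, of a Rap GTPase-activating family (3 against 1), Tjp1, the tight junction scaffold ZO-1 (3 against 1), and Cask, a synaptic and junctional MAGUK (2 against 0), and the fifth was Dvl2, a Wnt pathway protein (2 against 0). The polarity scaffold Scrib went furthest the other way, with 2 peaks without ligand and 6 after PDGF-AA, all in CDS. It was followed by the giant scaffold genes Ahnak (11 against 14) and Ahnak2 (6 against 9) and by Pdlim5, a PDZ and LIM domain protein of the actin cytoskeleton (2 against 5). None of these 9 genes had an untreated peak with a CA run, but 9 others of the 55 did. Among those, named after their values were seen, Pard3, a polarity scaffold, had a CA run in all 4 of its untreated peaks, as many as Pdzrn3, and Pard3b in both of its own, and the other 7 had 1 such peak each. Pard3 had 5 PDGF-AA peaks and Pard3b 3, so neither had an untreated excess.

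Genes with the nearest peak patterns were found by the summed absolute difference over 6 counts, CDS, intron and other peaks in each list. For Magi1 they were Col4a1, a basement membrane collagen, at a distance of 5, then Col5a2, a fibrillar collagen, and Rrbp1, a ribosome-binding protein of the endoplasmic reticulum, both at 6. Col4a1 had 4 coding and 4 intron peaks without ligand, with a CA run in 2 of these 8, and 5 coding peaks after PDGF-AA. For Pdzrn3 they were Col4a1 at 5, the postsynaptic scaffold Tanc1 at 6 and Farp1 at 7, and Tanc1 had 4 untreated peaks with a CA run, as many as Pdzrn3. For Dlg5 they were Kctd10, an adaptor of cullin ubiquitin ligases, and 2700081O15Rik, both at 1, and Rbm33, an RNA-binding protein, at 2. None of those nearest to Dlg5 had an untreated peak with a CA run, whereas Dlg5 had 2.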

How the data were processed

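The authors deposited 4 peak lists, 2 full lists and 2 lists of genes bound in 1 condition alone, whose rows give an interval, a gene and the caller's peak name. Per the study's methods, the authors trimmed reads with cutadapt 1.18, collapsed them on molecular identifiers, removed reads matching repetitive elements, aligned the rest with STAR 2.7.9 (versions as in the submitters' processing notes) to GRCm39, called peaks with omniCLIP once per condition and annotated them with RCAS. The methods name no background library. By their read numbers, repeat removal left 1 untreated library unchanged while the other Srsf3 libraries lost reads, and the part of this in the CA-run peaks was not tested.

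Distinct intervals were counted once per named gene. Each took the region of its gene (GENCODE M39, GRCm39) with most of its nucleotides, ties to CDS. Exon and intron numbers and distances to splice sites follow the longest coding transcript of each gene alone. A peak was shared with the other list at 1 nt or more of overlap on the same strand. CA runs were uninterrupted, at least 12 nt, on the gene strand. Sequences were read from GRCm39. The sequences of 2 peaks in Magi1 intron 1 are not reported here. Edges appear shifted by 1 nt against exon edges and are printed as deposited. The shares of CA-run and intron peaks among untreated peaks carry Wilson 95% intervals. Where a limit is given for a count of 0, it is 3 counts. Other shares and zeros carry none. No test was run, since each condition has 1 list. Python 3.11.15, pandas 2.3.3 and numpy 2.4.6 were used, and counting steps were tested on simulated data. The members, the PDZ list, written from textbook knowledge, and the analyses were chosen with earlier results of these data known. Named genes were the members, the 4 PDZ genes with the largest excess in each direction, and the 3 nearest patterns of each member, ties by covered nucleotides and name. Alternatives covered gene assignment, merging, region rule, transcript, repeat definition, overlap and the 1 nt shift.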

Additional observations from a re-analysis of the deposited data

How the results depend on the processing

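Of 35 alternative values, 31 stayed within 1.5 times the value reported, 4 moved further and none changed sign. A sign could not change in plain counts, nor in differences where the PDGF-AA list has no peaks. The difference in coding peaks could not move without CA-run peaks, since all of those lay in introns. The tally is therefore no measure of robustness. Merging peaks within 50 nt lowered the Magi1 difference from 8 to 4. Leaving out peaks with a CA run of 12 nt or more lowered the difference of Pdzrn3 from 6 to 2, of Dlg5 from 5 to 3 and of the intron peaks of all 3 genes from 14 to 6. By construction the first alternative joins neighbouring peaks and the second has fewer peaks. The untreated CA-run peaks numbered 7 to 10 under the other run definitions against 8, and untreated peaks that met a PDGF-AA peak numbered 9 to 10 against 10. The alternatives for runs in whole genes (8 to 12 against 10) and for the PDZ list (15 to 17 genes against 18) were chosen after seeing the data. No paired analysis was possible because each condition has 1 pooled list and no result comes from a test, and no replicate could be left out for the same reason. The number of reads behind a peak is unknown, so how far depth limits a missing peak could not be set.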
